A study of Homo sapiens with 8 samples.

Results

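The 39 genes described here encode integrin chains and the proteins that join them to actin filaments at focal adhesions, out of 24598 genes in the deposited table. They were taken by gene symbol from a list of 12 integrin alpha chains, 7 beta chains and 20 intracellular components. That list was chosen with earlier results of these data known, so counts set against all genes describe it and do not test it. Integrins are receptors of the cell membrane, each made of an alpha and a beta chain, that hold a cell to matrix proteins such as collagen, laminin and fibronectin. Talin and kindlin bind the tail of the beta chain and switch the receptor on, a complex of ILK, PINCH and parvin and adaptors such as paxillin gather there with the kinases FAK and SRC, and vinculin, alpha-actinin, filamin, zyxin, VASP and tensins tie the site to actin. In skin fibroblasts focal adhesions carry the pull of the cell on its matrix, and integrins with the alphaV chain can release TGF-beta from its latent complex.

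RNA was sequenced from CCD-1077Sk, a human skin fibroblast line, 6 h after treatment, to examine how celastrol, a triterpenoid from a medicinal vine, alters gene expression driven by TGFB1, a cytokine that stimulates matrix production. There were 4 groups of 2 libraries: TGFB1 with 500 nM celastrol (written TGFB1 + celastrol), TGFB1 with DMSO, 500 nM celastrol with BSA and citric acid, and a control that received BSA, citric acid and DMSO. The TGFB1 dose is not stated in the labels, and all cells grew in high-glucose medium with serum. The labels do not say whether both libraries of a group are separate cultures, and the p-values therefore describe a spread from library to library that could be technical.

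Values are normalized reads, that is estimated reads per gene divided by a size factor of the library, and libraries held between 20716711 and 42518357 estimated reads. Differences are on a log2(normalized reads + 1) scale, which understates the change of low genes. All adjusted p-values come from 1 limma fit across the 22866 genes that reached 10 normalized reads in 2 or more libraries, and a difference was called at an adjusted p under 0.05. All 9 fibroblast markers looked for were in the table, at a summed 377449 to 669225 normalized reads per library. Of 7 keratinocyte markers, KRT5, KRT14, KRT1 and DSG3 were not in it, while KRT10, CDH1 and TP63 were. KRT10 had 873 to 1059 normalized reads across the libraries, and CDH1 and TP63 had at most 13.9. Of the members, 38 could be tested. The beta6 chain gene ITGB6 was too low for the test, at 9.11 and 6.60 normalized reads with TGFB1 + celastrol, 7.06 and 17.1 under TGFB1, 5.41 and 4.84 under celastrol and 0 in both control libraries. All members but ITGB6 had reads in every library.

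TGFB1 raised most of these genes, and most were lower when celastrol was added. With TGFB1 against control, 22 of 38 tested members were higher and 1, the beta8 chain gene ITGB8, was lower, where 12.8% of all tested genes were higher and 10.6% lower (23.5% in either direction). In TGFB1 + celastrol against TGFB1, 25 members were lower and 3 higher, where 25.9% of all genes were lower and 37.5% higher (63.4% in either direction). Of the 3 higher, ITGA9 and ITGB4 reached the level needed for the test only through libraries with celastrol, so a rise there was fixed by that filter. The median log2 difference of the members was 0.36 with TGFB1, against a median of 0 over all genes, and -0.46 in TGFB1 + celastrol against TGFB1, against 0.12 over all genes. The comparisons share libraries, so their counts are not independent of each other. In bulk libraries fewer cells of a type and less RNA per cell cannot be told apart.

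Most members were abundant, and abundant genes as a whole moved more often. Of the 31 members with a mean of at least 1000 normalized reads, 22 were higher with TGFB1 and 0 lower, while 32.5% of all genes at that level were higher and 8.85% lower. In TGFB1 + celastrol against TGFB1, 25 of these 31 were lower and 0 higher, while 48.5% of all such genes were lower and 22.2% higher. With celastrol against control, 9 members were higher and 13 lower, where 33.8% of all genes were higher and 21.3% lower (55.1% in either direction). Of the 31 abundant members 6 were higher and 13 lower there, and of all genes at that level 25.3% were higher and 31.0% lower. The median of the members was -0.12 there, against 0.08 over all genes. Of the 9 members higher with celastrol, ITGA9 and ITGB4 entered the test only through libraries with celastrol, so their rise was fixed by that filter.

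Counted by library, both TGFB1 + celastrol libraries were below both TGFB1 libraries for 26 of 38 members and above them for 8, where this held for 34.8% and 45.9% of all tested genes. Both TGFB1 libraries were above both controls for 29 members and below them for 2, where it held for 29.2% and 28.4% of all genes. Both celastrol libraries were above both controls for 10 members and below them for 18, where it held for 44.5% and 33.8%. These 10, like the 8 above, include ITGA9 and ITGB4, whose rise with celastrol was fixed by the filter. For TGFB1 + celastrol and celastrol the libraries overlapped for 28 members, with 4 above and 6 below, where 16.7% of all genes were above and 17.1% below.

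With celastrol present, no member differed detectably between cells with and without TGFB1. In TGFB1 + celastrol against celastrol, 0 of 38 members passed the threshold in limma, 1 had an unadjusted p under 0.05, and only 0.00875% of all tested genes were called (2 genes, 0.00437% higher and 0.00437% lower). The member with that p was the alpha6 chain gene ITGA6, with a log2 difference of 0.18 (SE 0.06, adjusted p = 1). Log2 differences of the members lay between -0.24 and 0.18. The near absence of calls held for all genes, and CCN2, a well-known TGFB1 target, had a log2 difference of 0.16 (SE 0.10, adjusted p = 1). Whether the added TGFB1 was active in these cultures was not tested, which bears on these counts and on the interactions. Whether the TGFB1 difference depended on celastrol was tested directly by the interaction, the TGFB1 difference with celastrol minus that without it. The interaction was called below 0 for 17 members and above 0 for 1, ITGB8, where it was called for 11.3% of all genes (6.89% below 0 and 4.36% above 0). Among the 31 members with a mean of at least 1000 normalized reads it was called below 0 for 17 and above 0 for 0. Of all genes at that level, 19.5% were called below 0 and 5.03% above 0.

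**Figure D1:**
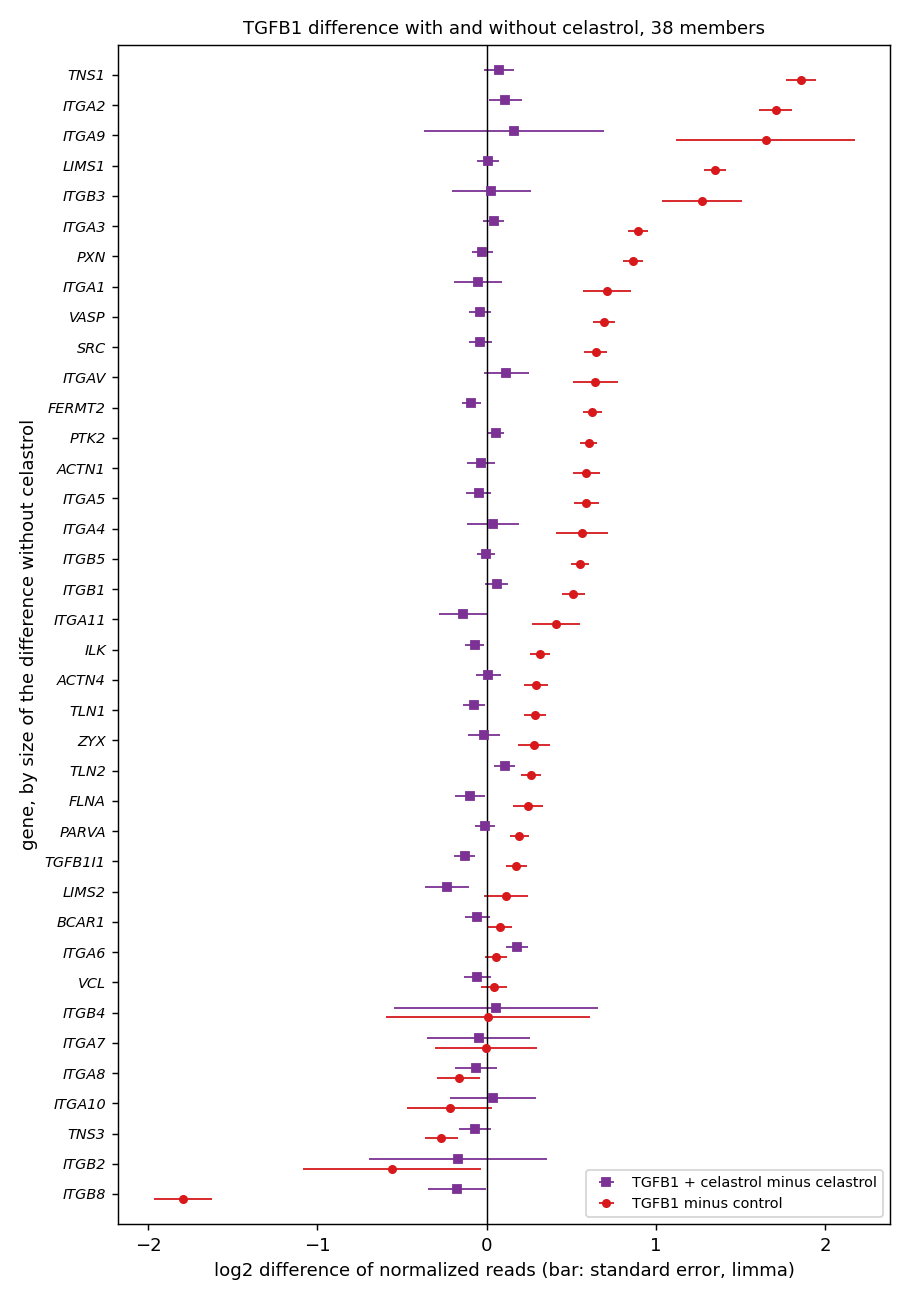
Log2 difference made by TGFB1 for the 38 tested members, in TGFB1 + celastrol minus celastrol (squares) and in TGFB1 minus control (circles), with limma standard errors as bars and 2 libraries in each group. Without celastrol the differences run between -1.79 for ITGB8 and 1.86 for TNS1, and with celastrol they lie between -0.24 and 0.18.

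Some of these counts depended on how the fit was made. When the fit held just the 4 compared libraries, 11 members were higher with TGFB1 and 0 lower, while over all 22866 genes 1064 were higher and 620 lower, against 2937 and 2427 in the fit of all libraries. Without a variance trend 14 members were higher, and 1836 of all genes. The 13 members lower with celastrol became 7 without celastrol replicate 2, 6 without control replicate 1 and 7 without a variance trend, while the 4868 of all genes became 3575, 3359 and 3943. The 17 interactions below 0 became 11 without TGFB1 + celastrol replicate 2 or celastrol replicate 2, and 10 without a variance trend, while the 1576 of all genes became 813, 862 and 668.

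The split between higher and lower members moved with the scaling of the libraries. When each library was scaled to a common total, the median of all genes moved to -0.21 for TGFB1 against control, and 16 members were higher and 3 lower. Of all 22866 genes, 1417 were then higher and 5400 lower. When each library was centred on its median, the median of all genes moved to 0.12 and 28 members were higher and 1 lower. Of all genes, 4778 were then higher and 1775 lower. For TGFB1 + celastrol against TGFB1 the median of all genes was 0.28 with a common total, where 6 members were higher and 21 lower, and -0.17 with median centring, where 3 were higher and 31 lower. Among all genes 9813 were higher and 4181 lower with a common total, and 6956 and 9094 with median centring. For celastrol against control the median of all genes was 0.0049 with a common total, where 8 members were higher and 17 lower, and -0.09 with median centring, where 6 were higher and 20 lower. Among all genes 7286 were higher and 6064 lower with a common total, and 6751 and 7470 with median centring. The interaction was called above 0 for 2 and below 0 for 11 members with a common total (median of all genes 0.22). With median centring it was called above 0 for 1 and below 0 for 22 (-0.11). Over all genes it was called above 0 for 2476 and below 0 for 801 with a common total, and for 784 and 2748 with median centring.

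Among the alpha chains that bind collagen, ITGA2 moved most. ITGA2 (chromosome 5, 52989340 to 53094779, plus strand of hg38) encodes alpha2, which pairs with beta1 as a collagen receptor. It had 2577 and 2822 normalized reads with TGFB1 + celastrol, 14047 and 16122 under TGFB1, 2332 and 2674 under celastrol and 4387 and 4843 in control. Both TGFB1 libraries stood far above the rest, and both groups with celastrol lay below control. On the log2 scale, ITGA2 rose by 1.71 with TGFB1 (SE 0.10, adjusted p = 9.46e-06), fell by 2.48 in TGFB1 + celastrol against TGFB1 (SE 0.10, adjusted p = 4.24e-07) and fell by 0.88 with celastrol against control (SE 0.10, adjusted p = 8.75e-05).

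The alpha1 gene ITGA1 (chromosome 5, 52787916 to 52959209, plus strand), which encodes another collagen receptor chain, followed a different course. It had 2462 and 2088 normalized reads with TGFB1 + celastrol, 2585 and 2166 under TGFB1, 2369 and 2328 under celastrol and 1668 and 1255 in control. Every treated library was above both controls, and the 3 treated groups overlapped. ITGA1 rose by 0.71 with TGFB1 (SE 0.14, adjusted p = 0.00769) and by 0.70 with celastrol (SE 0.14, adjusted p = 0.00296), and was not called in TGFB1 + celastrol against TGFB1 (log2 -0.061, adjusted p = 0.724). With median centring limma called it lower there (log2 -0.35, adjusted p = 0.0462). Its TGFB1 call was lost with only the compared libraries and without a variance trend (adjusted p between 0.0531 and 0.15). Part of ITGA1, 2.56% of its exon bases, is shared with PELO on the same strand, so reads there could have been split. ITGA11, the collagen chain of fibroblasts, was lower in TGFB1 + celastrol than in TGFB1 by 0.44 (SE 0.14, adjusted p = 0.0242), a call that was lost with a common total, without a variance trend, without TGFB1 + celastrol replicate 1 or 2 and without TGFB1 replicate 2 (adjusted p between 0.0514 and 0.161). ITGA10 stayed at 43.8 to 65.7 normalized reads and was not called in any comparison.

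Of the laminin-binding chains, alpha3 moved and alpha6 did not pass the test. ITGA3 (chromosome 17, 50055968 to 50090481, plus strand) had 3312 and 3388 normalized reads with TGFB1 + celastrol, 7334 and 8054 under TGFB1, 3187 and 3324 under celastrol and 4173 and 4096 in control. Its TGFB1 libraries were above all others and its celastrol libraries below control, with no overlap. ITGA3 rose by 0.89 with TGFB1 (SE 0.06, adjusted p = 2.53e-05), fell by 1.20 in TGFB1 + celastrol against TGFB1 (SE 0.06, adjusted p = 1.35e-06) and fell by 0.34 with celastrol (SE 0.06, adjusted p = 0.00139). ITGA6, whose chain pairs with beta1 or beta4, had 4397 and 4556 normalized reads with TGFB1 + celastrol, 4619.9 and 4395 under TGFB1, 4171 and 3736 under celastrol and 4326 and 4355 in control, and the TGFB1 + celastrol and TGFB1 libraries overlapped. ITGA7, the alpha chain best known from muscle, was not called. It had 161.2 and 209.1 normalized reads with TGFB1 + celastrol, 84.7 and 158.5 under TGFB1, 173.9 and 207.1 under celastrol and 97.6 and 138.6 in control. Every ITGA7 library with celastrol was above every library without it. Being not called in TGFB1 + celastrol against TGFB1 and in celastrol against control did not hold under every alternative for ITGA6 or ITGA7.

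Of the 3 alpha chains that read the RGD motif of fibronectin and vitronectin, alpha5 and alphaV rose with TGFB1. ITGA5 (chromosome 12, 54395261 to 54419266, minus strand), the fibronectin receptor chain, had 10062 and 9424 normalized reads with TGFB1 + celastrol, 11225 and 12799.5 under TGFB1, 10212 and 9894 under celastrol and 8178 and 7773 in control. All treated libraries exceeded control, and the TGFB1 libraries were highest. ITGA5 rose by 0.59 with TGFB1 (SE 0.07, adjusted p = 0.000691) and by 0.33 with celastrol (SE 0.07, adjusted p = 0.00455), and fell by 0.30 in TGFB1 + celastrol against TGFB1 (SE 0.07, adjusted p = 0.00657). The last of these calls was lost with a common total and without TGFB1 + celastrol replicate 2 (adjusted p between 0.0596 and 0.11), the TGFB1 call with only the compared libraries (adjusted p = 0.0657), and the celastrol call with median centring (adjusted p = 0.0597).

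ITGAV (chromosome 2, 186590056 to 186680901, plus strand), the chain of the receptors that release latent TGF-beta, had 9618 and 8441 normalized reads with TGFB1 + celastrol, 14152 and 11639 under TGFB1, 8943 and 7735 under celastrol and 9177 and 7359.9 in control. The TGFB1 libraries were above the others, while the remaining groups overlapped. It rose by 0.64 with TGFB1 (SE 0.13, adjusted p = 0.00933), a call that was lost with only the compared libraries, without a variance trend and without control replicate 2 (adjusted p between 0.0604 and 0.146). It fell by 0.51 in TGFB1 + celastrol against TGFB1 (SE 0.13, adjusted p = 0.00909), a call that was lost without TGFB1 + celastrol replicate 2 and without TGFB1 replicate 1 (adjusted p between 0.059 and 0.0883). ITGA8 was not called in any comparison and lay between 803 and 1091 normalized reads. Its TGFB1 + celastrol libraries, at 1085 and 990, were above its TGFB1 libraries, at 888 and 803. Except in TGFB1 + celastrol against celastrol and the interaction, its being not called did not hold under every alternative run.

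ITGA4, whose chain binds fibronectin and VCAM1, had 5534 and 4848 normalized reads with TGFB1 + celastrol, 8139.6 and 6198 under TGFB1, 5466 and 4654 under celastrol and 5434 and 4258 in control. TGFB1 replicate 1 was the highest library and TGFB1 replicate 2 lay closer to the others. ITGA4 was higher with TGFB1 by 0.56 (SE 0.16, adjusted p = 0.032), a call that was lost with a common total, with only the compared libraries, without a variance trend, without TGFB1 + celastrol replicate 1 or 2, without celastrol replicate 1 or 2, without TGFB1 replicate 1 and without control replicate 2 (adjusted p between 0.0593 and 0.229). It was lower in TGFB1 + celastrol than in TGFB1 by 0.46 (SE 0.16, adjusted p = 0.0303), a call that was lost with a common total, without a variance trend, without TGFB1 + celastrol replicate 1 or 2 and without TGFB1 replicate 1 (adjusted p between 0.0654 and 0.19).

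The related ITGA9 (chromosome 3, 37452115 to 37823507, plus strand) was low without celastrol. It had 73.6 and 99.05 normalized reads with TGFB1 + celastrol, 19.8 and 8.60 under TGFB1, 65.7 and 88.4 under celastrol and 6.25 and 1.80 in control, and a count of 0 allows up to 1.80 to 4.24 normalized reads, depending on the library. All 4 libraries with celastrol were above all 4 without it. Since ITGA9 reached the level needed for the test only through libraries with celastrol, a rise with celastrol was fixed by that filter. No test of that rise is given. ITGA9 was not called with TGFB1 (log2 1.65, adjusted p = 0.0554). ITGA9-AS1, on the opposite strand, shares 6.46% of its exon bases, and the labels do not say whether counting used strand.

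The shares of low genes called higher with celastrol were large, but a gene near 0 without celastrol could enter the test only through the libraries with celastrol, as ITGA9 and ITGB4 did, and the deposited table holds no gene whose highest library is under 11 estimated reads. Of all genes with a mean under 100 normalized reads, 46.7% were higher and 9.47% lower with celastrol against control, and 53.0% were higher and 9.13% lower in TGFB1 + celastrol against TGFB1. Markers of other cell types that the table holds were mostly higher with celastrol too. The 4 endothelial markers in the table, of 5 looked for, summed to 360.5 to 464.8 normalized reads with TGFB1 + celastrol, 52.7 to 98.9 with TGFB1, 354.4 to 370.5 with celastrol and 52.8 to 92.5 in control, with PECAM1 at 0 in 3 of the 4 libraries without celastrol, and CDH5 was not in the table. The 2 platelet markers, of 4 looked for, summed to 61.0 to 69.3, 0 to 11.1, 76.5 to 82.4 and 4.80 to 5.003 in the same order of groups, with GP1BA at 0 in all 4 libraries without celastrol. The 4 immune markers, of 5, summed to 384.6 to 525.1, 310.6 to 319.9, 402.2 to 488.1 and 245.1 to 368.6, and the 2 melanocyte markers, of 5, to 95.7 to 121.98, 11.1 to 14.1, 105.4 to 133.7 and 8.75 to 11.4. The 3 keratinocyte markers in the table, of 7, summed to 958.3 to 986.1, 939 to 1059, 894 to 1072 and 880.5 to 958.5. Their part in the rise of low integrin genes was not tested.

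Taking length into account, collagen-binding chains took a larger share of the alpha chain reads with TGFB1. Normalized reads per kilobase of exon, from the union of annotated exons, were summed over the 12 alpha chains. Collagen-binding chains made up 11.3% and 11.99% of this sum with TGFB1 + celastrol, 25.8% and 29.4% under TGFB1, 10.8% and 12.8% under celastrol and 15.2% and 17.4% in control. The TGFB1 libraries did not overlap any other. The larger share came from ITGA2. ITGA2 alone made up 7.12 ± 0.75% with TGFB1 + celastrol, 24.4 ± 2.44% with TGFB1, 6.83 ± 0.95% with celastrol and 12.6 ± 1.69% in control (SD, n = 2 each). The other 3 chains of the class held no larger share with TGFB1 than in control, with means of 1.63% and 1.68% for ITGA1, 0.095% and 0.188% for ITGA10 and 1.495% and 1.875% for ITGA11.

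The sum itself was 4806 ± 200.7 reads per kilobase with TGFB1 + celastrol, 7831 ± 24.2 with TGFB1, 4649.98 ± 197.8 with celastrol and 4664 ± 302.5 in control (SD, n = 2 each). RGD-binding chains held the largest share in all 4 groups, at 52.5 ± 1.34% with TGFB1 + celastrol, 41.7 ± 0.86% with TGFB1, 53.5 ± 0.64% with celastrol and 46.8 ± 1.67% in control. Laminin-binding chains made up 22.01 ± 1.502%, 19.1 ± 0.52%, 20.8 ± 0.17% and 23.7 ± 1.59% in that order of groups. With the longest transcript as the length, the collagen-binding share was 9.75 ± 0.29% with TGFB1 + celastrol, 21.5 ± 1.95% with TGFB1, 9.90 ± 1.07% with celastrol and 12.8 ± 1.05% in control.

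**Figure D2:**
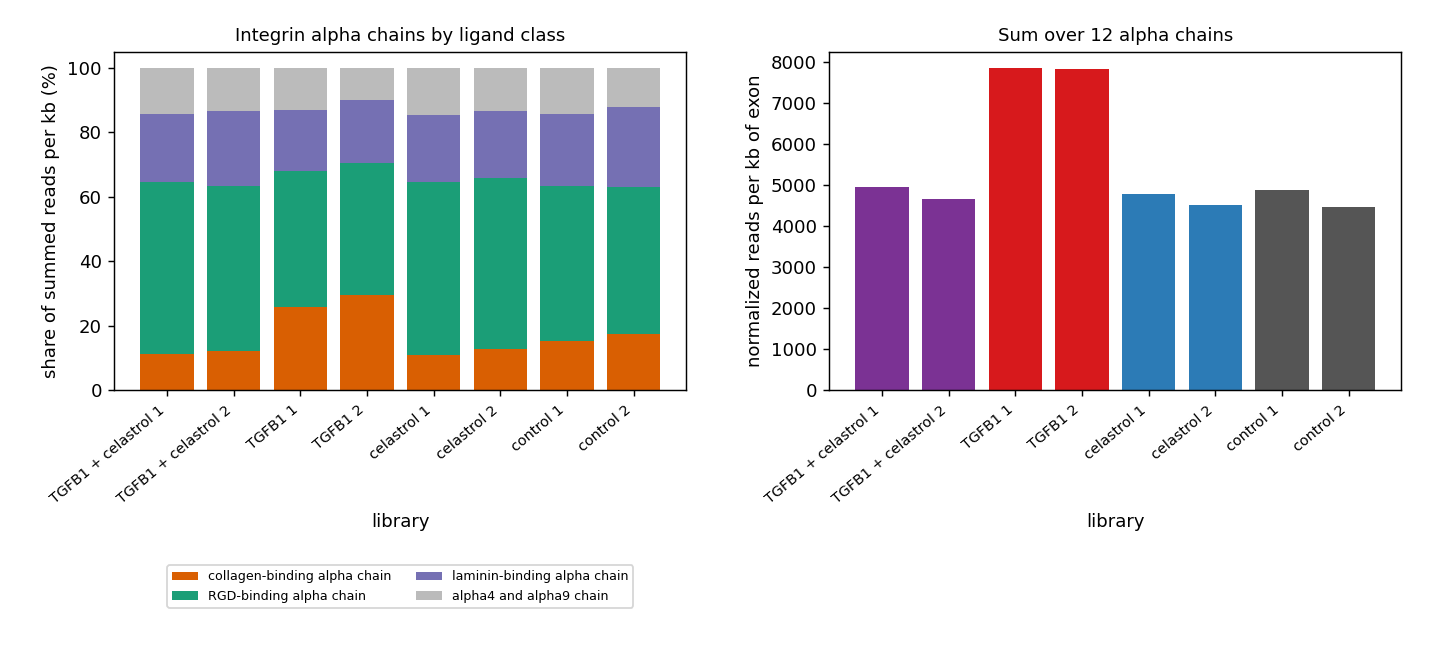
Left, share of the summed alpha chain reads per kilobase of exon taken by each ligand class (stacked bars, percent) and, right, the sum over 12 alpha chains in normalized reads per kilobase of exon (bars from 0), for each of the 8 libraries. Collagen-binding chains hold 25.8% and 29.4% in the TGFB1 libraries and at most 17.4% elsewhere, and the sum is highest in the TGFB1 libraries.

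Among beta chains, ITGB1 dominated in every group. Beta1 is the partner of most alpha chains in fibroblasts, and it took between 90.1% and 92.03% of the summed beta chain reads per kilobase as a group mean. ITGB1 (chromosome 10, 32887273 to 33005792, minus strand) had 55155 and 56849 normalized reads with TGFB1 + celastrol, 90157 and 82727 under TGFB1, 54344 and 53152 under celastrol and 61464 and 59665 in control. Only the TGFB1 libraries exceeded control, and both groups with celastrol lay below it, although ITGB1 was not called with celastrol against control. That result did not hold under every alternative run. ITGB1 rose by 0.51 with TGFB1 (SE 0.07, adjusted p = 0.00108), a call that was lost with only the compared libraries (adjusted p = 0.11), and fell by 0.63 in TGFB1 + celastrol against TGFB1 (SE 0.07, adjusted p = 7.56e-05).

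Beta3 and beta5, partners of alphaV that bind vitronectin, also rose with TGFB1. ITGB3 (chromosome 17, 47253827 to 47313743, plus strand) had 1638 and 1056 normalized reads with TGFB1 + celastrol, 4037 and 3311 under TGFB1, 1515 and 1097 under celastrol and 1759.7 and 1303 in control. Its TGFB1 libraries were above all others, which overlapped each other. ITGB3 rose by 1.27 with TGFB1 (SE 0.24, adjusted p = 0.00552), a call that was lost with only the compared libraries (adjusted p = 0.0766), and fell by 1.47 in TGFB1 + celastrol against TGFB1 (SE 0.24, adjusted p = 0.000634). AC068234.1, on the same strand, shares 51.6% of the exon bases of ITGB3, so the split of reads between them is uncertain. ITGB5 (chromosome 3, 124761948 to 124901418, minus strand), the beta5 gene, had 2924 and 2837 normalized reads with TGFB1 + celastrol, 4616 and 4840.0 under TGFB1, 2868 and 2908 under celastrol and 3262 and 3193 in control. Levels peaked with TGFB1, and ITGB5 rose by 0.55 with TGFB1 (SE 0.05, adjusted p = 0.000166) and fell by 0.71 in TGFB1 + celastrol against TGFB1 (SE 0.05, adjusted p = 8.82e-06). Its fall of 0.16 with celastrol (SE 0.05, adjusted p = 0.0307) was lost without a variance trend, without celastrol replicate 1 or 2 and without control replicate 1 or 2 (adjusted p between 0.0735 and 0.149).

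ITGB8 was the one member called lower with TGFB1. It encodes beta8 (chromosome 7, 20330702 to 20415754, plus strand), which forms the alphaV-beta8 receptor known for activating latent TGF-beta. ITGB8 had 613 and 681 normalized reads with TGFB1 + celastrol, 88.98 and 128 under TGFB1, 656 and 811 under celastrol and 364 and 380.3 in control. The TGFB1 libraries were lowest and the 4 libraries with celastrol highest, with no overlap with control. ITGB8 fell by 1.79 with TGFB1 (SE 0.17, adjusted p = 0.000172), a call that was lost with only the compared libraries (adjusted p = 0.053). It rose by 2.59 in TGFB1 + celastrol against TGFB1 (SE 0.17, adjusted p = 5.32e-06) and by 0.97 with celastrol against control (SE 0.17, adjusted p = 0.00154). ITGB8 held 0.422 ± 0.027% of the summed beta chain reads per kilobase with TGFB1 + celastrol, 0.045 ± 0.014% with TGFB1, 0.498 ± 0.084% with celastrol and 0.224 ± 0.013% in control (SD, n = 2 each).

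ITGB4, the hemidesmosome chain of epithelia, was low throughout. ITGB4 (chromosome 17, 75721328 to 75757818, plus strand) had 53.3 and 27.5 normalized reads with TGFB1 + celastrol, 11.3 and 2.46 under TGFB1, 44.8 and 30.3 under celastrol and 5.003 and 5.998 in control, with all libraries with celastrol above those without it. Only through libraries with celastrol did ITGB4 reach the level needed for the test. A rise with celastrol was thus fixed by that filter, and no test of it is given. ITGB2, the leukocyte beta chain, had between 5.65 and 19.6 normalized reads and was not called.

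**Figure D3:**
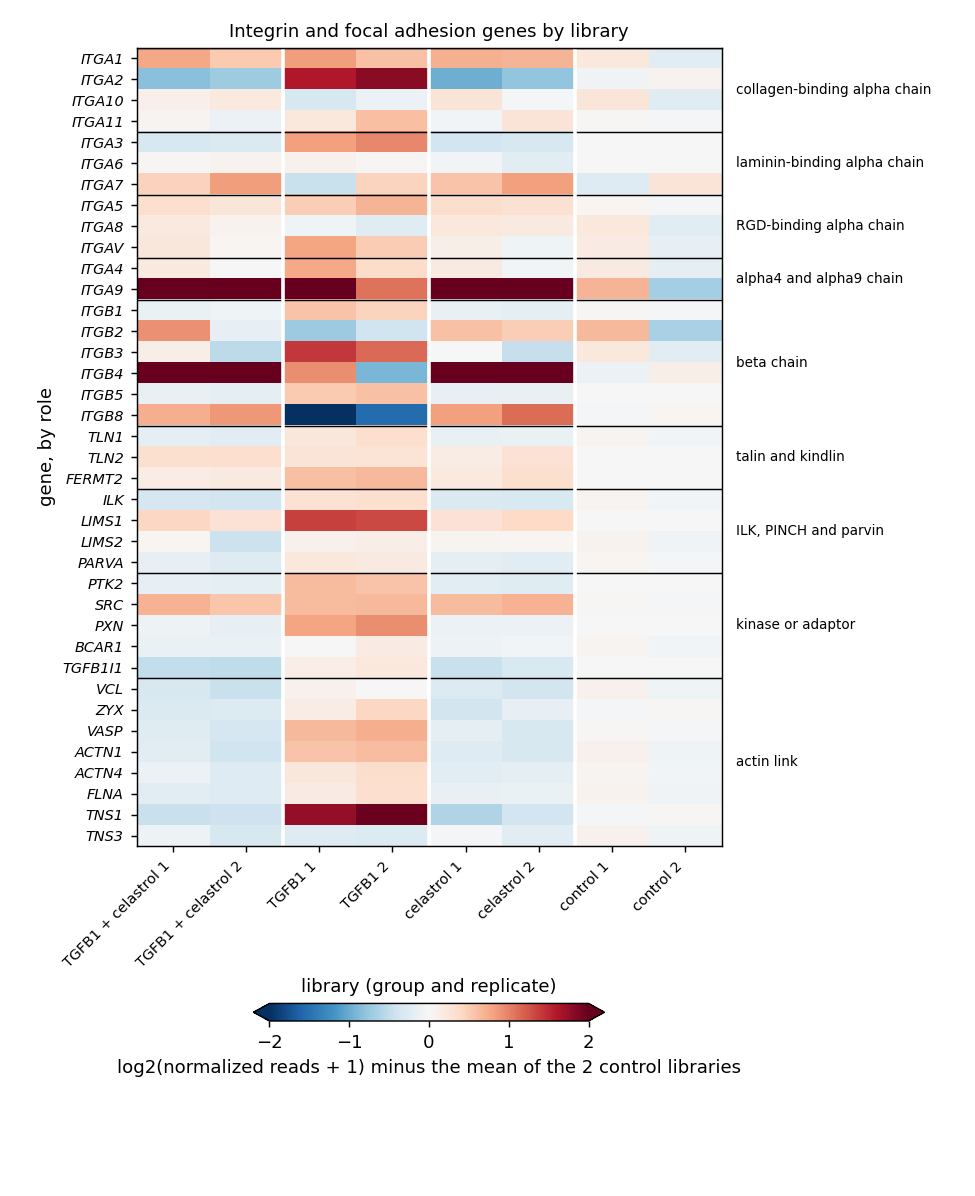
Log2(normalized reads + 1) of the 38 tested members (rows, grouped by role) in each of the 8 libraries (columns), minus the mean of the 2 control libraries, with colours clipped at -2 and 2. TNS1 and ITGA2 are highest in the TGFB1 libraries, ITGB8 is lowest there, and ITGA9 and ITGB4 are high in all libraries with celastrol.

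Talin and kindlin, which bind the beta chain tail and activate the receptor, all rose with TGFB1. FERMT2 (chromosome 14, 52857268 to 52952435, minus strand), kindlin-2, had 8876 and 9113 normalized reads with TGFB1 + celastrol, 12176 and 12547 under TGFB1, 9157 and 9997 under celastrol and 8067 and 7961 in control. All treated libraries were above control, and the TGFB1 libraries were highest. FERMT2 rose by 0.63 with TGFB1 (SE 0.06, adjusted p = 0.000143) and by 0.26 with celastrol (SE 0.06, adjusted p = 0.00569), a call that was lost with median centring (adjusted p = 0.253). It fell by 0.46 in TGFB1 + celastrol against TGFB1 (SE 0.06, adjusted p = 0.00017).

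TLN1 (chromosome 9, 35696948 to 35732195, minus strand), talin-1, had 26650.5 and 25995 normalized reads with TGFB1 + celastrol, 35906 and 38652 under TGFB1, 27498 and 27903 under celastrol and 31631 and 29522 in control. Levels peaked with TGFB1, and the groups with celastrol lay below control, although TLN1 was not called with celastrol against control. That result did not hold under every alternative run. TLN1 rose by 0.29 with TGFB1 (SE 0.06, adjusted p = 0.0139), a call that was lost with a common total, with only the compared libraries, without a variance trend and without control replicate 2 (adjusted p between 0.0742 and 0.502), and fell by 0.50 in TGFB1 + celastrol against TGFB1 (SE 0.06, adjusted p = 0.000181). Talin-2, encoded by TLN2, had 3903 and 3959 normalized reads with TGFB1 + celastrol, 3733 and 3773 under TGFB1, 3474 and 3838 under celastrol and 3112 and 3141 in control. It rose by 0.26 with TGFB1 (SE 0.06, adjusted p = 0.0143) and by 0.22 with celastrol (SE 0.06, adjusted p = 0.0122), and was not called in TGFB1 + celastrol against TGFB1 (log2 0.067, adjusted p = 0.357), although with median centring it was lower there (log2 -0.22, adjusted p = 0.0126). The TLN2 call with TGFB1 was lost with a common total, without a variance trend and without control replicate 1 or 2 (adjusted p between 0.0699 and 0.678), and that with celastrol with a common total, with median centring, without a variance trend, without celastrol replicate 2 and without control replicate 1 or 2 (adjusted p between 0.0525 and 0.495).

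In the ILK, PINCH and parvin complex, LIMS1 moved most. LIMS1 (chromosome 2, 108534355 to 108687246, plus strand) encodes PINCH-1, the adaptor that binds ILK. It had 4688 and 4284 normalized reads with TGFB1 + celastrol, 9075 and 8744 under TGFB1, 4296 and 4616 under celastrol and 3517 and 3481 in control. The TGFB1 libraries were highest, and the libraries with celastrol were above control too. LIMS1 rose by 1.35 with TGFB1 (SE 0.06, adjusted p = 4.05e-06) and by 0.35 with celastrol (SE 0.06, adjusted p = 0.00175), and fell by 0.99 in TGFB1 + celastrol against TGFB1 (SE 0.06, adjusted p = 4.26e-06). LIMS1 has near-identical copies, so its reads may have been split among them. The copy LIMS3 had 314 and 291 normalized reads with TGFB1 + celastrol, 160.0 and 182 under TGFB1, 336 and 316 under celastrol and 70.5 and 50.8 in control. LIMS4 had 133 and 139 normalized reads with TGFB1 + celastrol, 84.8 and 93.5 under TGFB1, 125 and 109 under celastrol and 36.9 and 28.2 in control.

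ILK (chromosome 11, 6603708 to 6610874, plus strand), the scaffold of the complex, had 6218 and 6035 normalized reads with TGFB1 + celastrol, 9601 and 9992 under TGFB1, 6466 and 6398 under celastrol and 8182 and 7579.8 in control. The TGFB1 libraries were above control and both groups with celastrol below it. ILK fell by 0.68 in TGFB1 + celastrol against TGFB1 (SE 0.06, adjusted p = 1.74e-05) and by 0.29 with celastrol (SE 0.06, adjusted p = 0.0025), and rose by 0.31 with TGFB1 (SE 0.06, adjusted p = 0.00501). This last call was lost with a common total, with only the compared libraries and without a variance trend (adjusted p between 0.0531 and 0.257). TAF10 on the opposite strand shares 68.1% of the exon bases of ILK, so without strand in the counting their reads could not be told apart.

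PARVA, alpha-parvin, was lower in TGFB1 + celastrol than in TGFB1 by 0.41 (SE 0.06, adjusted p = 0.000297). Its rise of 0.19 with TGFB1 (SE 0.06, adjusted p = 0.0424) was not held under most alternatives, and its log2 difference was -0.032 with a common total. The PARVA call with TGFB1 was lost with a common total, with only the compared libraries, without a variance trend, without TGFB1 + celastrol replicate 1 or 2, without celastrol replicate 1 or 2, without TGFB1 replicate 1 or 2 and without control replicate 1 or 2 (adjusted p between 0.0553 and 0.723). With celastrol it fell by 0.21 (SE 0.06, adjusted p = 0.0137), a call that was lost without a variance trend, without celastrol replicate 2 and without control replicate 1 (adjusted p between 0.0766 and 0.102). PARVA ranged over 9332 to 12923 normalized reads. LIMS2, PINCH-2, ranged over 1161 to 1712 and was not called in any comparison. Its TGFB1 + celastrol libraries, at 1603 and 1161, were below its TGFB1 libraries, at 1654 and 1712. Its being not called in that comparison and in the interaction did not hold under every alternative run.

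Paxillin and FAK rose with TGFB1 and fell when celastrol was added. PXN (chromosome 12, 120210439 to 120265771, minus strand), the paxillin scaffold, had 4710.4 and 4507 normalized reads with TGFB1 + celastrol, 8778 and 9675 under TGFB1, 4684 and 4691 under celastrol and 5063 and 5065 in control. Only the TGFB1 libraries exceeded control, and all libraries with celastrol lay below it. PXN rose by 0.86 with TGFB1 (SE 0.06, adjusted p = 2.99e-05), fell by 1.00 in TGFB1 + celastrol against TGFB1 (SE 0.06, adjusted p = 3.04e-06) and was not called with celastrol alone (log2 -0.11, adjusted p = 0.15). That PXN was not called with celastrol alone did not hold under every alternative run. The antisense gene PXN-AS1 shares 12.3% of the exon bases of PXN.

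PTK2, which encodes FAK, had 3121 and 3068 normalized reads with TGFB1 + celastrol, 5412 and 5236 under TGFB1, 2997 and 2967 under celastrol and 3521 and 3494 in control. Its TGFB1 libraries were highest, and its libraries with celastrol lay below control without overlap. PTK2 rose by 0.60 with TGFB1 (SE 0.05, adjusted p = 7.51e-05), fell by 0.78 in TGFB1 + celastrol against TGFB1 (SE 0.05, adjusted p = 4.12e-06) and fell by 0.23 with celastrol (SE 0.05, adjusted p = 0.00398).

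SRC (chromosome 20, 37344685 to 37406050, plus strand), the kinase that binds active FAK, was raised by either treatment. It had 1879 and 1698 normalized reads with TGFB1 + celastrol, 1801 and 1817 under TGFB1, 1795 and 1874 under celastrol and 1182 and 1134 in control. All 6 treated libraries were above control, and the 3 treated groups overlapped. SRC rose by 0.64 with TGFB1 (SE 0.07, adjusted p = 0.000265) and by 0.66 with celastrol (SE 0.07, adjusted p = 6.31e-05), and was not called in TGFB1 + celastrol against TGFB1 (log2 -0.018, adjusted p = 0.829). This absence of a call did not hold under every alternative run.

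TGFB1I1, which encodes the paxillin relative Hic-5 and was named for its induction by TGFB1, had 2409 and 2367 normalized reads with TGFB1 + celastrol, 3713 and 3909.6 under TGFB1, 2491 and 2741 under celastrol and 3382 and 3367 in control. Only the TGFB1 libraries were above control, and those with celastrol were below it. TGFB1I1 was not called with TGFB1 (log2 0.18, adjusted p = 0.0776) and fell by 0.67 in TGFB1 + celastrol against TGFB1 (SE 0.06, adjusted p = 2.81e-05) and by 0.37 with celastrol (SE 0.06, adjusted p = 0.00111). BCAR1, the adaptor p130Cas, was lower in TGFB1 + celastrol than in TGFB1 by 0.21 (SE 0.07, adjusted p = 0.0309), a call that was lost with a common total, with only the compared libraries, without a variance trend, without TGFB1 + celastrol replicate 1 or 2 and without TGFB1 replicate 2 (adjusted p between 0.0647 and 0.539), and was not called elsewhere. BCAR1 ranged over 2473 to 3029 normalized reads. Its being not called with TGFB1 and with celastrol did not hold under every alternative run, nor did that of TGFB1I1 with TGFB1.

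**Figure D4:**
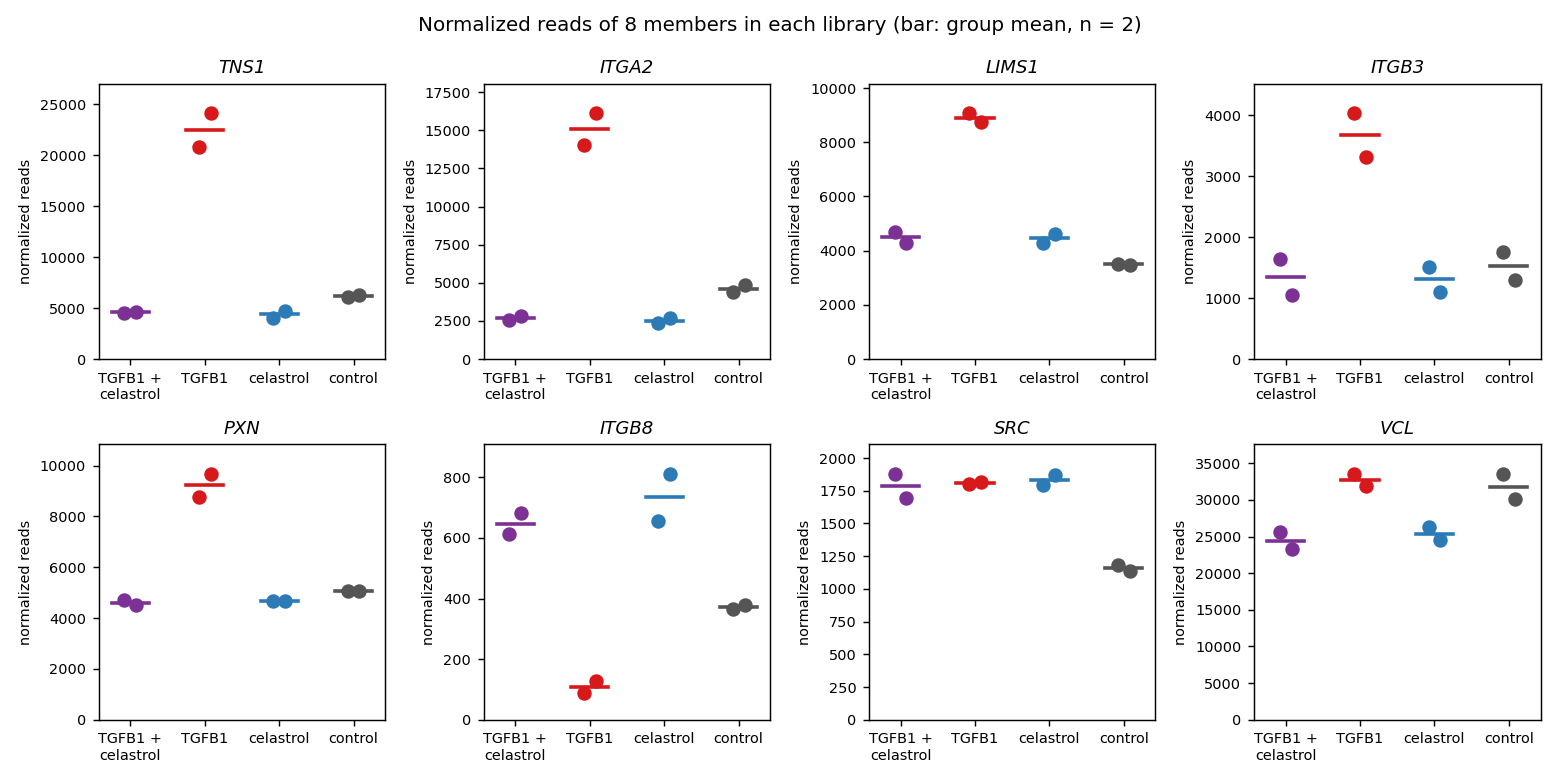
Normalized reads (linear axis) of 8 members in each library, in the order TGFB1 + celastrol, TGFB1, celastrol and control, with a bar at the mean of 2 libraries. TNS1, ITGA2, LIMS1, ITGB3 and PXN are highest in the TGFB1 libraries, ITGB8 is lowest there, SRC is raised in all treated groups, and VCL is lower in both groups with celastrol.

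TNS1, which links integrins to actin filaments, rose most of the 38 tested members with TGFB1. TNS1 (chromosome 2, 217799588 to 218033982, minus strand), tensin-1, had 4551 and 4651 normalized reads with TGFB1 + celastrol, 20819.7 and 24109.8 under TGFB1, 4059.7 and 4726 under celastrol and 6114 and 6252 in control. Both TGFB1 libraries stood far above the rest, and the libraries with celastrol lay below control. TNS1 rose by 1.86 with TGFB1 (SE 0.09, adjusted p = 4.22e-06), fell by 2.28 in TGFB1 + celastrol against TGFB1 (SE 0.09, adjusted p = 4.35e-07) and fell by 0.50 with celastrol (SE 0.09, adjusted p = 0.0015). The related TNS3 was not called in any comparison on the deposited scaling, though with median centring it was lower in TGFB1 + celastrol than in TGFB1 (log2 -0.23, adjusted p = 0.0494). It ranged over 8692 to 11531 normalized reads. As deposited it had log2 differences of 0.06 in TGFB1 + celastrol against TGFB1, -0.27 with TGFB1 and -0.14 with celastrol.

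VASP and alpha-actinin-1 followed with smaller changes. VASP (chromosome 19, 45506579 to 45526983, plus strand), which promotes actin filament growth, had 3200.3 and 2992 normalized reads with TGFB1 + celastrol, 5953 and 6277 under TGFB1, 3316 and 3045 under celastrol and 3862 and 3709 in control. It rose by 0.69 with TGFB1 (SE 0.07, adjusted p = 0.000153) and fell by 0.98 in TGFB1 + celastrol against TGFB1 (SE 0.07, adjusted p = 5.19e-06). Its fall of 0.25 with celastrol (SE 0.07, adjusted p = 0.0106) was lost without a variance trend, without celastrol replicate 2 and without control replicate 1 (adjusted p between 0.0622 and 0.0778). ACTN1 (chromosome 14, 68874128 to 68979440, minus strand), the actin crosslinker alpha-actinin-1, had 21954 and 19478 normalized reads with TGFB1 + celastrol, 38104 and 39446 under TGFB1, 21617 and 20711 under celastrol and 27328 and 24303 in control. For both genes the TGFB1 libraries were above control and the libraries with celastrol below it. ACTN1 rose by 0.59 with TGFB1 (SE 0.08, adjusted p = 0.00118), a call that was lost with only the compared libraries (adjusted p = 0.0681), and fell by 0.91 in TGFB1 + celastrol against TGFB1 (SE 0.08, adjusted p = 2.34e-05). With celastrol alone it fell by 0.28 (SE 0.08, adjusted p = 0.016), a call that was lost without a variance trend, without celastrol replicate 1 or 2 and without control replicate 1 (adjusted p between 0.055 and 0.118).

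Vinculin and filamin A, among the most abundant members, were lower in TGFB1 + celastrol than in TGFB1, without a called rise with TGFB1. VCL (chromosome 10, 73995193 to 74121363, plus strand) had 25564 and 23331 normalized reads with TGFB1 + celastrol, 33529 and 31956 under TGFB1, 26268 and 24518 under celastrol and 33548 and 30054 in control. The TGFB1 and control libraries overlapped, and all 4 libraries with celastrol were below them. VCL fell by 0.42 in TGFB1 + celastrol against TGFB1 (SE 0.08, adjusted p = 0.00151) and by 0.32 with celastrol (SE 0.08, adjusted p = 0.00766), the second a call that was lost without celastrol replicate 2 and without control replicate 1 (adjusted p between 0.0615 and 0.0724). Its log2 difference with TGFB1 was 0.044 (adjusted p = 0.753). AP3M1 on the opposite strand shares 11.1% of the exon bases of VCL.

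FLNA (chromosome X, 154348524 to 154374634, minus strand), filamin A, had 139818 and 134362 normalized reads with TGFB1 + celastrol, 180274 and 202544 under TGFB1, 145937 and 147287 under celastrol and 168391 and 154330.0 in control. Levels peaked with TGFB1, and both groups with celastrol lay below control. FLNA fell by 0.48 in TGFB1 + celastrol against TGFB1 (SE 0.09, adjusted p = 0.00159) and was not called with TGFB1 (log2 0.25, adjusted p = 0.085) or with celastrol (log2 -0.14, adjusted p = 0.23). Neither absence of a call held under every alternative run. ZYX, zyxin, and ACTN4, alpha-actinin-4, fell in TGFB1 + celastrol against TGFB1 by 0.56 (SE 0.10, adjusted p = 0.000972) and 0.48 (SE 0.07, adjusted p = 0.000454). ACTN4 also rose by 0.29 with TGFB1 (SE 0.07, adjusted p = 0.0207), a call that was lost with a common total, with only the compared libraries, without a variance trend, without TGFB1 replicate 2 and without control replicate 2 (adjusted p between 0.0799 and 0.504). ZYX ranged over 5799 to 10014 normalized reads and ACTN4 over 16436 to 24938. Both were also lower with celastrol. The fall of ZYX, 0.27 (SE 0.10, adjusted p = 0.0435), was lost without a variance trend, without TGFB1 + celastrol replicate 1 or 2, without celastrol replicate 1 and without control replicate 1 or 2 (adjusted p between 0.0824 and 0.278). The fall of ACTN4, 0.20 (SE 0.07, adjusted p = 0.0452), was lost without a variance trend, without TGFB1 + celastrol replicate 1 or 2, without celastrol replicate 1 or 2 and without control replicate 1 (adjusted p between 0.0556 and 0.247).

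Per kilobase of exon, filamin A and beta1 were the most abundant members in control. FLNA had 15244 ± 939.3 and ITGB1 had 10076 ± 211.7 normalized reads per kilobase (SD, n = 2). ACTN4 at 3211 ± 190.5, VCL at 3183 ± 247.2 and TLN1 at 3035 ± 148.0 followed and did not differ beyond their spread. Next came ACTN1 at 2429 ± 201.3, ILK at 2262 ± 122.2 and ZYX at 2159 ± 46.8, with neighbours in this order within their spread. With the longest transcript as the length, ACTN1 ranked 3 and TLN1 ranked 7, and FLNA and ITGB1 kept their places. At the lower end were ITGB2 at 1.64 ± 1.07, ITGB4 at 0.81 ± 0.10 and ITGA9 at 0.49 ± 0.38.

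Promoter windows are shown for ACTN1, FLNA and TGFB1I1, since these are the tested members with a match to the SRF CArG box, the site of serum response factor, a regulator of genes for actin and its partners. RefSeq (GRCh38.p14) gave 58 windows of the 250 bases before a start for 30 of the 39 members. A CArG box, searched on both strands, was in 4 member windows, of ACTN1, FLNA, ITGB6 and TGFB1I1, and in 1.16% of all 35116 windows. The CArG box is in capitals, and in ACTN1 so is CATTCC, a match on the other strand to the TEAD motif GGAATG that was searched.
ACTN1, chr14:68977567-68977816, minus strand: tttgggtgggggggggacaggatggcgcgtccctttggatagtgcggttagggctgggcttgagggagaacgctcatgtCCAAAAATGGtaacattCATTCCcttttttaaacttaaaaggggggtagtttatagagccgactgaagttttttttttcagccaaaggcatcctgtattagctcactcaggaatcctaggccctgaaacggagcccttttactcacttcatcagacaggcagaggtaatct
FLNA, chrX:154374635-154374884, minus strand: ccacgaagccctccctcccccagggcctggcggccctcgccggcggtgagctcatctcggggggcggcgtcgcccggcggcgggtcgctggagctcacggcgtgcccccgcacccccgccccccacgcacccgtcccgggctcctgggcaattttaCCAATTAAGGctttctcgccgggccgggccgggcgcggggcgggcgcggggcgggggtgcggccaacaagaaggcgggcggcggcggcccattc
TGFB1I1, chr16:31472955-31473204, plus strand: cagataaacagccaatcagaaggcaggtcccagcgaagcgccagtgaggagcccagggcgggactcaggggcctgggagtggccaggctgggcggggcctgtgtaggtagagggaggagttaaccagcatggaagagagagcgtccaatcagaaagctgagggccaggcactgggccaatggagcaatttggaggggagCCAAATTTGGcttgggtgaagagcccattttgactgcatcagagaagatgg
ACTN1 and TGFB1I1 each have other RefSeq starts whose windows hold no CArG box, and which start these cells used is not known. All 3 genes were among the 25 of 38 tested members called lower in TGFB1 + celastrol than in TGFB1. Of all genes with a mean of at least 1000 normalized reads, a level these 3 reached, 48.5% were lower there. Only ACTN1 of the 3 was called higher with TGFB1, as were 22 of the 38 members. Of the other motifs searched on both strands, GGAATG was in 8 member windows of 7 members (11.9% of all windows), TGACTCA (AP-1) in 1, of BCAR1 (4.20%), GAANNTTC (heat shock element) in those of LIMS1 and PXN (5.78%), CACGTG in those of ILK and ITGA6 (6.34%), and GTCTAGAC (a SMAD palindrome) in 0 (0.182%). These matches describe letters and no site was tested.

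Other focal adhesion genes, from a list of 49 of which 48 were tested, mostly fell when celastrol was added to TGFB1. With TGFB1 17 were higher and 6 lower (median log2 0.13), in TGFB1 + celastrol against TGFB1 8 were higher and 28 lower (median -0.29), and with celastrol against control 7 were higher and 14 lower (median -0.11). The shares over all tested genes are 12.8% higher and 10.6% lower, 37.5% and 25.9%, and 33.8% and 21.3% in these comparisons. Of the 48, PARVG reached the level needed for the test only through libraries with celastrol, so a rise with celastrol was fixed by that filter. Whether other low genes of this list did so is not given here. Of the 36 listed genes with a mean of at least 1000, 15 were higher and 5 lower with TGFB1, where 32.5% and 8.85% of all genes at that level were, and 5 were higher and 24 lower in TGFB1 + celastrol against TGFB1, where 22.2% and 48.5% were.

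NEDD9, a relative of p130Cas that SRC phosphorylates, had 4696 and 4574 normalized reads with TGFB1 + celastrol, 9348 and 9392 under TGFB1, 3520.0 and 3547 under celastrol and 2330.0 and 2391 in control. It was highest with TGFB1 and above control in all treated groups. NEDD9 rose by 1.99 with TGFB1 (SE 0.05, adjusted p = 1.47e-07) and by 0.58 with celastrol (SE 0.05, adjusted p = 2.42e-05), and fell by 1.02 in TGFB1 + celastrol against TGFB1 (SE 0.05, adjusted p = 1.13e-06). FERMT3, the blood cell kindlin, had 436 and 365 normalized reads with TGFB1 + celastrol, 33.9 and 41.8 under TGFB1, 439 and 429 under celastrol and 45.02 and 41.4 in control and was high in all 4 libraries with celastrol, with a rise of 3.30 over control (SE 0.17, adjusted p = 1.98e-06).

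FHL2, a LIM protein that binds integrin tails, had 6539.9 and 5939 normalized reads with TGFB1 + celastrol, 4764 and 4619 under TGFB1, 6449.7 and 6255 under celastrol and 3153 and 3071 in control. It was highest in the groups with celastrol. FHL2 rose by 0.59 with TGFB1 (SE 0.06, adjusted p = 0.000238) and by 1.03 with celastrol (SE 0.06, adjusted p = 3.68e-06). LAYN, the hyaluronan receptor layilin that binds talin, had 2719 and 2756 normalized reads with TGFB1 + celastrol, 1482 and 1378 under TGFB1, 2844 and 2790.4 under celastrol and 2636 and 2712 in control, so that the TGFB1 libraries were the low ones. It fell by 0.90 with TGFB1 (SE 0.06, adjusted p = 1.8e-05) and rose by 0.94 in TGFB1 + celastrol against TGFB1 (SE 0.06, adjusted p = 3.41e-06). SDC4, the syndecan that works beside integrins, fell by 0.52 in TGFB1 + celastrol against TGFB1 (SE 0.06, adjusted p = 7.8e-05) and rose by 0.22 with TGFB1 (SE 0.06, adjusted p = 0.0257), though its log2 difference was -0.0044 with a common total. The rise of SDC4 was lost with a common total, with only the compared libraries, without a variance trend, without TGFB1 replicate 2 and without control replicate 1 or 2 (adjusted p between 0.072 and 1).

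Among 36 genes for integrin ligands, 17 were higher and 3 lower with TGFB1 (median log2 0.43), 9 higher and 17 lower in TGFB1 + celastrol against TGFB1 (median -0.29), and 9 higher and 3 lower with celastrol (median 0.024). Over all tested genes the shares are 12.8% and 10.6%, 37.5% and 25.9%, and 33.8% and 21.3%. How many low ligand genes entered the test only through libraries with celastrol is not given here. Of the 24 ligand genes with a mean of at least 1000, 15 were higher and 0 lower with TGFB1, where 32.5% and 8.85% of all genes at that level were, and 1 was higher and 16 lower in TGFB1 + celastrol against TGFB1, where 22.2% and 48.5% were.

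Of the ligands named whatever their result, CCN2 fell by 2.57 in TGFB1 + celastrol against TGFB1 (SE 0.10, adjusted p = 3.96e-07) and rose by 2.76 with TGFB1 (SE 0.10, adjusted p = 9.39e-07). The gene of fibronectin, FN1, the main ligand of alpha5, had 142565 and 162619 normalized reads with TGFB1 + celastrol, 428528 and 498164 under TGFB1, 139888 and 162306 under celastrol and 170587 and 185627 in control. It fell by 1.60 in TGFB1 + celastrol against TGFB1 (SE 0.12, adjusted p = 9.51e-06) and rose by 1.38 with TGFB1 (SE 0.12, adjusted p = 9.85e-05), a rise that was lost with only the compared libraries (adjusted p = 0.129). Its libraries with celastrol lay below control, although limma did not call FN1 with celastrol against control (log2 -0.24, adjusted p = 0.124). THBS1, thrombospondin-1, fell by 1.66 (SE 0.17, adjusted p = 4.7e-05) and rose by 1.04 (SE 0.17, adjusted p = 0.00287) in these comparisons, and its rise was lost with only the compared libraries (adjusted p = 0.305). COL1A1, of the main fibrillar collagen, fell by 1.11 (SE 0.15, adjusted p = 0.00026) and rose by 0.70 (SE 0.15, adjusted p = 0.0116), and its rise was lost with only the compared libraries, without a variance trend and without control replicate 1 or 2 (adjusted p between 0.0518 and 0.234). CCN1 was not called in TGFB1 + celastrol against TGFB1 (adjusted p = 0.879) and rose with TGFB1 by 0.79 (SE 0.09, adjusted p = 0.000404) and with celastrol by 0.64 (SE 0.09, adjusted p = 0.000354).

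Tenascin-C, encoded by TNC and bound by alphaV and alpha9 receptors, had 10800.3 and 11954 normalized reads with TGFB1 + celastrol, 22584 and 24853 under TGFB1, 10632 and 10921 under celastrol and 10873 and 11824 in control, and only the TGFB1 libraries stood apart. It fell by 1.06 in TGFB1 + celastrol against TGFB1 (SE 0.08, adjusted p = 7.15e-06). The basement membrane collagen gene COL4A1 fell by 2.33 there (SE 0.15, adjusted p = 4.42e-06). LTBP1, which tethers latent TGF-beta to the matrix, rose by 0.97 with TGFB1 (SE 0.05, adjusted p = 1e-05), and TGFB1, the gene of the cytokine itself, fell by 1.72 in TGFB1 + celastrol against TGFB1 (SE 0.11, adjusted p = 3.29e-06).

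Among the other integrin chain genes, 6 of the 8 in the list were tested. Most are known from blood cells. With TGFB1 0 were called by limma, with 1 having an unadjusted p under 0.05. ITGAL, ITGAM and ITGA2B reached the level needed for the test only through libraries with celastrol, so a rise was fixed by that filter and no count is given. ITGAL, the leukocyte alphaL chain, had 125 and 97.9 normalized reads with TGFB1 + celastrol, 0 and 0 under TGFB1, 100.5 and 95.7 under celastrol and 0 and 1.20 in control. All 4 libraries without celastrol were at 0 or below the level of 3 reads. The alphaM gene ITGAM had 18.2 and 22.01 normalized reads with TGFB1 + celastrol, 0 and 0 under TGFB1, 10.05 and 15.7 under celastrol and 0 and 0 in control, and the platelet chain gene ITGA2B had 43.5 and 53.9 normalized reads with TGFB1 + celastrol, 0 and 11.1 under TGFB1, 67.2 and 64.2 under celastrol and 5.003 and 4.80 in control. ITGAE fell by 0.47 in TGFB1 + celastrol against TGFB1 (SE 0.11, adjusted p = 0.00663) and by 0.34 with celastrol (SE 0.11, adjusted p = 0.0311). For ITGAE the first call was lost without TGFB1 + celastrol replicate 1 (adjusted p = 0.0507), and the second without celastrol replicate 2 and without control replicate 1 or 2 (adjusted p between 0.0886 and 0.168). Markers of immune cells and platelets were also highest with celastrol, as given above, and their part was not tested. In TGFB1 + celastrol against celastrol, 0 genes of these 3 lists were called by limma, and an unadjusted p under 0.05 was found for 2 of the other focal adhesion genes, 1 of the ligands and 0 of the other integrin chains.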

How the data were processed

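Total RNA was sequenced from 8 libraries in 4 groups of 2. The signal values deposited by the authors are, judged from the values themselves, estimated reads per gene divided by a size factor of the library. The submitters' processing notes name Partek 10.0.22, STAR 2.7.3a, DESeq2 and hg38, without their roles. Multiplying back gave whole reads, within 0.02, for only 74.5% to 75.8% of values up to 200 reads, so no count model was run. Values were taken as log2(value + 1) and fitted in limma 3.58.1 (R 4.3.3) with 1 mean per group over all 8 libraries, a variance trend and Benjamini-Hochberg adjustment within each comparison. The member genes and the other lists were chosen with earlier results of these data known. All members are accounted for; of each other list up to 4 genes with the smallest p per comparison could be named, and some whatever their result. Some items of these lists are not reported here. Alternatives were other pseudocounts, scalings and filters, only the compared libraries, no variance trend, a replicate block and leaving out each library. The procedure was tested on simulated data. Exon lengths and overlaps came from GENCODE 29, and the counting annotation was not stated. A count of 0 allows up to 3 reads, for counting error only.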

Additional observations from a re-analysis of the deposited data

Results flagged for a closer look

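For 18 members the difference made by TGFB1 itself differed with celastrol present, by limma's interaction term, the log2 difference of TGFB1 + celastrol minus celastrol less that of TGFB1 minus control, with 2 libraries in each group. It was below 0 for 17 of them and above 0 for ITGB8, and was called for 11.3% of all tested genes. These 17 had a mean of at least 1000 normalized reads, a level at which 19.5% of all genes were called below 0.

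Among alpha chains the interaction was -0.76 (SE 0.20, adjusted p = 0.0442) for ITGA1, -1.60 (SE 0.14, adjusted p = 0.000254) for ITGA2, -0.85 (SE 0.09, adjusted p = 0.000568) for ITGA3 and -0.63 (SE 0.10, adjusted p = 0.00586) for ITGA5. Among beta chains it was -0.45 (SE 0.10, adjusted p = 0.0211) for ITGB1, -1.24 (SE 0.33, adjusted p = 0.0479) for ITGB3, -0.55 (SE 0.07, adjusted p = 0.00233) for ITGB5 and 1.62 (SE 0.25, adjusted p = 0.00408) for ITGB8. The call for ITGA1 was lost with a common total, without a variance trend, without TGFB1 + celastrol replicate 1 or 2, without celastrol replicate 1 or 2, without TGFB1 replicate 1 and without control replicate 2 (adjusted p between 0.0865 and 0.19), that for ITGA5 without a variance trend (adjusted p = 0.0649), that for ITGB1 with a common total, without a variance trend, without TGFB1 + celastrol replicate 1 or 2, without celastrol replicate 1 or 2 and without control replicate 1 or 2 (adjusted p between 0.0526 and 0.193) and that for ITGB3 without the filter, with a common total, without a variance trend, without TGFB1 + celastrol replicate 2, without celastrol replicate 1 or 2, without TGFB1 replicate 1 or 2 and without control replicate 1 or 2 (adjusted p between 0.0522 and 0.179).

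Among the intracellular components TNS1 had -1.79 (SE 0.13, adjusted p = 0.000101), LIMS1 -1.34 (SE 0.09, adjusted p = 8.35e-05) and PXN -0.89 (SE 0.09, adjusted p = 0.000449). VASP had -0.73 (SE 0.09, adjusted p = 0.00172), FERMT2 -0.71 (SE 0.08, adjusted p = 0.00112) and SRC -0.68 (SE 0.10, adjusted p = 0.00276). ACTN1 had -0.62 (SE 0.11, adjusted p = 0.0103), PTK2 -0.55 (SE 0.07, adjusted p = 0.00188), ILK -0.39 (SE 0.08, adjusted p = 0.0186) and TLN1 -0.36 (SE 0.09, adjusted p = 0.0391). The call for ACTN1 was lost with a common total, without a variance trend, without TGFB1 + celastrol replicate 2 and without celastrol replicate 1 or 2 (adjusted p between 0.0507 and 0.0779), that for ILK with a common total, without a variance trend, without TGFB1 + celastrol replicate 1 or 2, without celastrol replicate 1 or 2 and without control replicate 2 (adjusted p between 0.0585 and 0.238) and that for TLN1 with a common total, without a variance trend, without TGFB1 + celastrol replicate 1 or 2, without celastrol replicate 1 or 2, without TGFB1 replicate 2 and without control replicate 1 or 2 (adjusted p between 0.0586 and 0.383). The calls for ITGA2, ITGA3, ITGB5, ITGB8, TNS1, LIMS1, PXN, VASP, FERMT2, SRC and PTK2 held under all 14 alternatives run.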

How the results depend on the processing

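Of the calls, 22 of 28 in TGFB1 + celastrol against TGFB1, 10 of 23 with TGFB1, 11 of 22 with celastrol and 11 of 18 interactions held under every alternative run. Of the members not called, 2 of 10, 7 of 15, 6 of 16 and 11 of 20, in the same order, stayed uncalled under every alternative. Being not called was thus also a result that often depended on the processing. The calls in TGFB1 + celastrol against TGFB1 and with celastrol include ITGA9 and ITGB4, whose rise there was fixed by the filter. ITGA9 is also among the calls that held in these comparisons, so its place there is no sign of a stable result. Members higher in TGFB1 + celastrol against TGFB1 numbered 6 with a common total. Members higher with TGFB1 numbered 11 with only the compared libraries and 14 without a variance trend, and those lower numbered 3 with a common total and 0 with only the compared libraries. Members lower with celastrol numbered 20 with median centring and 7 without a variance trend. Called interactions above 0 numbered 2 with a common total, and those below 0 numbered 11 with a common total and 10 without a variance trend. The counts over all genes moved under these settings too, as given above.

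Leaving out 1 library at a time gave 2 to 4 members higher and 20 to 25 lower in TGFB1 + celastrol against TGFB1, 16 to 23 higher and 1 lower with TGFB1, 8 to 10 higher and 6 to 14 lower with celastrol, and 1 interaction above and 11 to 17 below 0. All of these are counts of calls, and the members higher with celastrol include ITGA9, whose rise was fixed by the filter. The lone library left in a group was then assumed to vary like the other groups. In TGFB1 + celastrol against celastrol 0 members were called under any of these alternatives.

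With the replicate number as a block, 5 members were higher and 26 lower in TGFB1 + celastrol against TGFB1, 27 and 2 with TGFB1, 10 and 15 for celastrol against control, and 1 and 20 in the interaction. The share of all genes called was then 67.0%, 28.6%, 59.2% and 16.03%, against 63.4%, 23.5%, 55.1% and 11.3% without it. Same-numbered libraries deviated together with correlations of 0.243 to 0.311 over 12862 genes, but with only 2 numbers this does not show that they pair.

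Some log2 differences changed sign. With TGFB1 under a common total, PARVA (-0.032) and SDC4 (-0.0044) did so without a call, and the listed genes KANK1 (-0.20), ROCK1 (-0.22) and SSH1 (-0.20) were then called lower. Under median centring TLN2 (-0.22) and TNS3 (-0.23) were called lower in TGFB1 + celastrol against TGFB1. These alternatives shift all genes by the amounts given above. Depth limits ITGA9, ITGB2, ITGB4 and ITGB6.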
